A study of Homo sapiens with 32 samples.

Results

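The genes described here are the abundant long intergenic non-coding RNAs (lincRNAs) of HEK293 cells, an established line derived from human embryonic kidney. They were selected on measured values, as the genes typed lincRNA in the deposited table whose mean level over the 16 libraries at 6 h was at least 20 CPM, the count of a gene scaled to one fixed total for every library. This rule gave 97 of the 7109 lincRNAs among 57773 genes. All cells, the controls included, had been transiently transfected with an expression plasmid for AT1R, the type 1 receptor of angiotensin II, and were moved to serum-free medium before the stimuli. The 4 conditions were control, angiotensin II (AII) at 1 nmol/l, epidermal growth factor (EGF) at 10 µg/l, and both agents together (AII+EGF), each for 6 h or 24 h. Every condition had 4 libraries, except AII+EGF at 24 h with 3. The cultures were pools of transfected cells, so the libraries do not tell how many cells carried the receptor. The question was how the abundant lincRNAs of these cells responded to activation of the EGF receptor, of AT1R and of both.

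Long non-coding RNAs are transcripts that work as RNA or whose transcription itself matters. Some hold protein assemblies together in the nucleus, as NEAT1 does in paraspeckles. MALAT1 is found at nuclear speckles, and XIST coats the inactive X chromosome. Others are the precursors from which microRNAs or small nucleolar RNAs (snoRNAs) are cut, and some genes that annotations have typed lincRNA make short catalytic or guide RNAs. EGF signals through the ERK cascade to immediate early transcription factors such as EGR1 and FOS, and AII acts on AT1R, a receptor coupled to G proteins.

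By adjusted p, 4 of the 97 lincRNAs rose with AII+EGF at 6 h and 1 fell. Of all genes tested, 6.10% passed in either direction. Of the 4 that rose, 3 were microRNA host genes, of which 2 also rose with EGF alone. Of 7 other microRNA hosts, taken as a list, 0 passed. The mature microRNAs of the 3 hosts are shown because they are the product of each host. RP6.99M1.2, now named MIR222HG, is the host of miR-221 and miR-222, and LINC00152 (CYTOR) and MIR4435.1HG (MIR4435-2HG) each hold a copy of miR-4435. LINC00152 and MIR4435.1HG share 6657 bases at 99.1%, so their values are not independent. The sequences are RefSeq's on build GRCh38.p14, 5′ to 3′, with the seed (bases 2 to 8) in capitals.
hsa-miR-221-3p: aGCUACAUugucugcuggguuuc
hsa-miR-222-3p: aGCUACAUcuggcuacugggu
hsa-miR-4435: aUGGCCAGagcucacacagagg
The first lies at chrX:45746180-45746202 on the minus strand and the second at chrX:45747036-45747056 on the same strand, and they share one seed. The third lies at chr2:87629764-87629785 on the plus strand and again at chr2:111321061-111321082 on the minus strand.

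The promoters of the same host genes are shown because all 3 rose in at least 1 comparison at 6 h. Each window runs from 250 bases before to 50 after the start in RefSeq, build GRCh38.p14. Capitals mark matches to the AP-1 motif TGANTCA, the site of FOS and JUN dimers.
RP6.99M1.2 (MIR222HG), chrX:45770218-45770517, minus strand: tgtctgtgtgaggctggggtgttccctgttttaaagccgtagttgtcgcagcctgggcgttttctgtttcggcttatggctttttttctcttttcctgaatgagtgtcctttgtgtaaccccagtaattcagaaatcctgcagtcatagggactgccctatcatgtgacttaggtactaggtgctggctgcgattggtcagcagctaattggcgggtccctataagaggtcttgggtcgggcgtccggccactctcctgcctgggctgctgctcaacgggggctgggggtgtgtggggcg
LINC00152 (CYTOR), chr2:87455177-87455476, plus strand: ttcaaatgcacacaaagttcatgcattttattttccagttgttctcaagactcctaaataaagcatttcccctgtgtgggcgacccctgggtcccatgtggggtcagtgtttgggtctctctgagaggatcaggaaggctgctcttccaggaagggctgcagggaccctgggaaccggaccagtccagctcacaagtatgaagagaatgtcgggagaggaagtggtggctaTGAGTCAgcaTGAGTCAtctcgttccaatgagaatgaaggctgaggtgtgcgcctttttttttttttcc
MIR4435.1HG (MIR4435-2HG), chr2:111495112-111495411, minus strand: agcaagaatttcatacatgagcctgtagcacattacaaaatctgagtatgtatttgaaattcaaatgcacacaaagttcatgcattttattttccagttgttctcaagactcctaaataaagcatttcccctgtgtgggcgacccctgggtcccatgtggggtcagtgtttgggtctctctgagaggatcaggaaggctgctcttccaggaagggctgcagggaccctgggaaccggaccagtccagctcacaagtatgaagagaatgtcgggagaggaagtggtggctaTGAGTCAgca
Bases 1 to 241 of the LINC00152 window and bases 60 to 300 of the MIR4435.1HG window were identical, so the AP-1 match of the second lies in sequence it shares with the first. The RP6.99M1.2 window held no AP-1 match. RefSeq gave such a window for 34 of the 97 lincRNAs, of which 3 (8.82%) held an AP-1 match on either strand, LINC01001 being the other, against 7.71% of all 35116 promoter windows. The EGR motif GCGNGGGCG stood in 2 windows (5.88%, C11orf95 and MALAT1) against 9.43% of all, the CRE motif TGACGTCA in 1 (2.94%, LINC00630) against 1.85%, and the CArG box of serum response factor in 0 against 1.29%. A match is a description of the letters in the window.

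Total counts per library ran from 3881841 to 8540815 at 6 h and from 6646227 to 33070903 at 24 h. The libraries of the time points differed in content. Small nuclear RNA genes took between 0.0639% and 0.344% of counts at 6 h but between 8.98% and 57.3% at 24 h, and ribosomal RNA genes rose from at most 0.0140% to between 5.32% and 23.9%. Time points were therefore fitted apart, and a difference in level between them cannot be told apart from this difference between libraries. AGTR1, the gene of the transfected receptor, was at 924 to 1514 CPM at 6 h and 179 to 960 CPM at 24 h. Of the HEK293 markers, LIN28B (106 to 199 CPM), NEFM (348 to 784 CPM), NEFL (402 to 586 CPM) and VIM (252 to 322 CPM) were plentiful at 6 h, whereas KRT8 reached at most 14.8 CPM, KRT18 at most 8.31 CPM and PAX2 had at most 5 counts in a library. By adjusted p, 2 of the 6 HEK293 markers tested rose with EGF and 3 with AII+EGF at 6 h, and their part in the results was not tested. The 7 tabulated markers of blood, endothelium, fibroblast, hepatocyte and podocyte had at most 4 counts in any library at 6 h, with CD3E and COL1A2 at 0. EGR1, ETV5, ARC and FOS, the targets of EGF that could be tested, all rose at 6 h, EGR1 by 4.48 ± 0.17 (log2, SE) with EGF.

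A few genes held most of the lincRNA signal. XIST alone was at a mean of 18793 CPM at 6 h, which was 64.2% of the summed level of the 97, and XIST, MALAT1 and RMRP together held 77.7%. MALAT1 was at 2849 CPM, RMRP, the RNA of the ribonuclease MRP, at 1109 CPM, SNORD3A, a gene of the U3 snoRNA that guides ribosomal RNA cleavage, at 865 CPM and NEAT1 at 562 CPM. LINC00657 (NORAD), which binds Pumilio proteins in the cytoplasm, followed at 353 CPM, then AL589743.1 (DUXAP9) at 247 CPM, SCARNA2, a guide RNA of Cajal bodies, at 198 CPM, CTD.2314B22.3 (DUXAP10) at 191 CPM and CASC7 at 185 CPM. The median of the 97 was 35.7 CPM, and 54 of them were below 40 CPM. Just above the threshold of 20 CPM stood RP11.495P10.1 (20.1 CPM), RP11.37B2.1 (20.2 CPM) and CTC.459F4.3 (20.3 CPM), and just below it RP11.195E2.4 (19.5 CPM), RP11.94L15.2 (19.3 CPM) and CTC.228N24.3 (19.2 CPM). The least read of the 97 in any library at 6 h had 27 counts, so all passed the filter on low counts at 6 h, and all 97 were tested at both times.

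**Figure D1:**
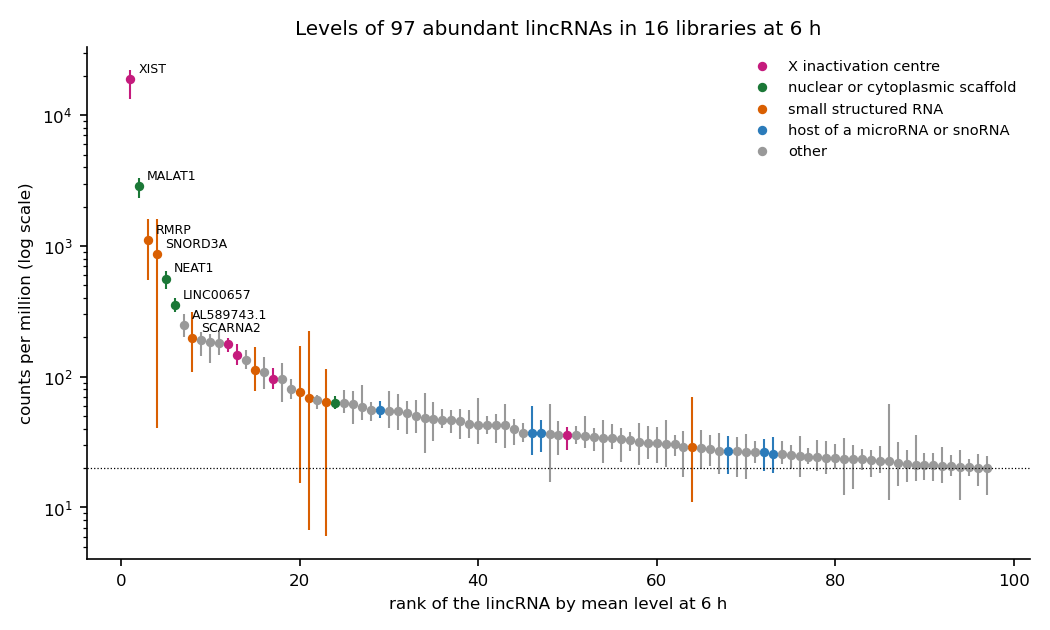
Mean level of each of the 97 lincRNAs over the 16 libraries at 6 h (CPM, log scale) against its rank, with a line from the lowest to the highest library and a dotted line at 20 CPM. XIST stands at 18793 CPM, and the U3 genes among the small structured RNAs (orange) have the longest lines.

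Levels per length changed this order. Per kilobase of exon, with FPM (CPM after TMM scaling) as the unit, RMRP had the highest level at 6 h of the 77 genes with a known exon length, with 4244, followed by SNORD3A with 1254, XIST with 747, SCARNA2 with 470, RP11.384K6.6 with 318, MALAT1 with 275 and TERC, the template RNA of telomerase, with 212. Lower in the order, with other genes between them, LINC00657 had 65.8 and NEAT1 24.8. XIST lies at chrX:73040484-73072558 on the minus strand (build GRCh37, as are all gene positions here), where it overlaps TSIX, its antisense regulator. MALAT1 is at chr11:65265111-65275544 on the plus strand and NEAT1 at chr11:65190245-65213011 on the same strand. Of the 97, 77 matched a current human annotation lifted to this build and 20 did not. Among the matched genes, 61 are now typed long non-coding RNA, 8 pseudogene, 4 snoRNA, 1 ribozyme, 2 protein coding and 1 of a type not yet settled. An exon of a gene on the opposite strand overlapped 32 of them and an exon of a gene on the same strand 28. Whether the counting used strand is not given in the sources used here, so reads of such pairs cannot be told apart.

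Sorted by what they do, 5 genes of the X inactivation centre (XIST, TSIX, FTX, JPX and RP13.216E22.4, which lies within the JPX locus) held 65.7% of the summed level at 6 h. The 4 RNAs grouped here as scaffolds were MALAT1, NEAT1, LINC00657 and the X-linked FIRRE, listed as RP11.453F18__B.1. They held 13.1%, the 8 small structured RNAs (RMRP, TERC, SCARNA2 and 5 U3 genes) 8.62% and the 6 hosts of microRNAs or snoRNAs 0.713%. The remaining 74 genes, mostly without a settled role, held 11.8%. The 97 together took between 2.17% and 3.32% of all counts in the 6 h libraries. Their mean share was 2.83% ± 0.450 (SD, n = 4) in control and 3.13% ± 0.223 with AII. It was 3.07% ± 0.116 in the EGF libraries and 2.68% ± 0.112 in the AII+EGF libraries. The range in control, from 2.17% to 3.18%, covered both the EGF and the AII+EGF libraries but for the highest EGF library.

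The genes were selected on their level at 6 h, so their levels at 24 h are given without a comparison. The CPM scale shares out a fixed total, of which small nuclear and ribosomal RNAs took far more at 24 h. At 24 h XIST stood at 20933 CPM, MALAT1 at 4365 CPM, NEAT1 at 688 CPM and SNORD3A at 233 CPM. Of the 10 most abundant at 6 h, 8 were also among the 10 most abundant at 24 h.

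By the median, the small structured RNAs varied between libraries of one condition far more than the other lincRNAs. The median SD of log2 FPM within conditions at 6 h was 1.02 for the 8 small structured RNAs, 0.161 for the X inactivation centre, 0.155 for the hosts, 0.0982 for the scaffolds and 0.193 for the other 74. It was 0.186 over the 97 and 0.138 over all 8687 genes with a mean of at least 20 FPM. The highest value was that of SNORD3D, a U3 gene, at 1.57. Among the 8 small structured RNAs the lowest was 0.284, and among the other 74 the highest was 0.512, so these classes overlapped. The U3 genes share sequence, so their values are not independent. At 24 h the median was 1.08 for the small structured RNAs and 0.286 for the 97, against 0.193 for 6024 genes. SNORD3A in control was at 41.9, 135, 1175 and 1499 FPM at 6 h. With EGF it was at 240, 1183, 1289 and 1652 FPM, with AII at 310, 1144, 520 and 925 FPM, and with AII+EGF at 658, 707, 1190 and 1355 FPM. All 4 conditions overlapped, and the 4 lowest libraries were the first 2 control, the first EGF and the first AII library. In 3 of these 4 the small nuclear RNA share was also lowest, between 0.0639% and 0.0914%, and it was 0.175% in the other. At 24 h the 5 libraries with the smallest small nuclear RNA share (8.98% to 14.5%) had the 5 lowest SNORD3A levels (88.6 to 137 FPM). All 5 had library numbers from 1 to 8 and columns with the word filtered in their names. Control replicate 1 and EGF replicate 1, also of that kind, had shares of 20.2% and 26.1% and levels of 210 and 328 FPM. How far the recovery of short RNAs set these levels was not tested.

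**Figure D2:**
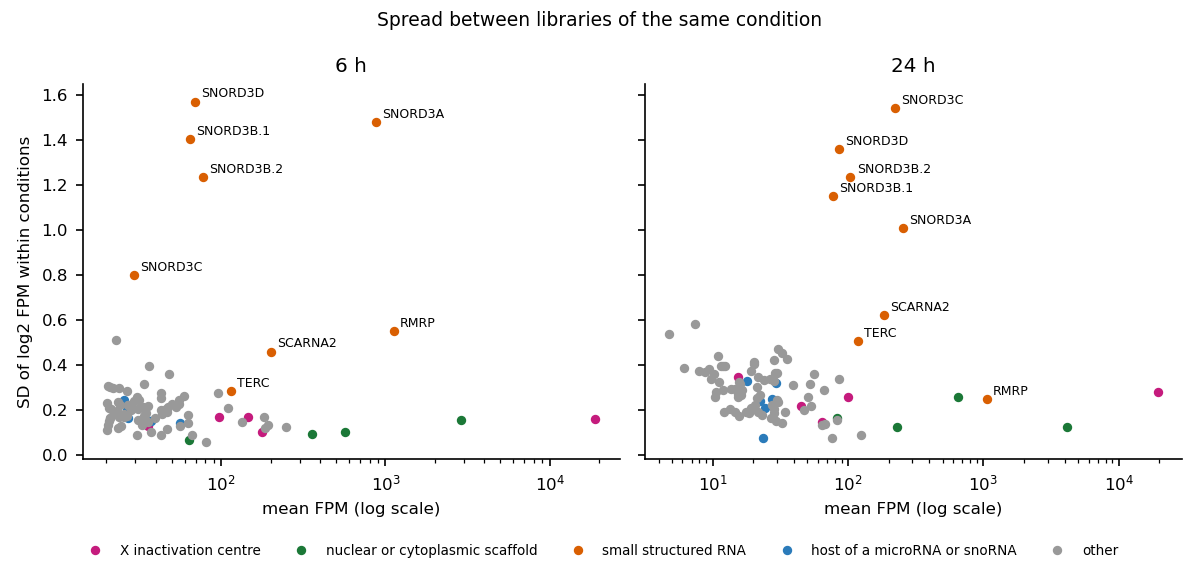
SD of log2 FPM between libraries of the same condition, pooled over the 4 conditions, against mean FPM (log scale) for the 97 lincRNAs at 6 h (left) and 24 h (right), coloured by role. The U3 genes reach 1.57 at 6 h, while scaffolds and hosts stay below 0.35.

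The copies of U3 share sequence, and so do other pairs. A near-identical copy elsewhere in the transcripts, at least 200 bases long and at least 97% identical, was found for 39 of the 77 matched genes. Among members, LINC00152 and MIR4435.1HG shared 6657 bases at 99.1%, LINC01106 and LINC01123 2256 bases at 99.5%, AL589743.1 and CTD.2314B22.3 1794 bases at 100%, AC159540.1 and LINC00342 1248 bases at 97.5%, and FAM157A and RP11.206L10.2 416 bases at 97.4%. Values of either gene of such a pair are uncertain to the extent that reads were split between them.

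EGF at 6 h raised 3 of the 97 lincRNAs at an adjusted p under 0.05 (edgeR's quasi-likelihood test with Benjamini-Hochberg adjustment over all genes) and lowered 0. These were RP6.99M1.2, CASC7 and LINC00152. In these bulk libraries more cells with an RNA and more of it per cell cannot be told apart. With a fold change above 1.5 and a mean above 5 FPM required as well, RP6.99M1.2 was the single gene called. Of all 18618 genes tested, 5.97% passed on the adjusted p alone and 1.73% passed the full rule. Of the other 810 lincRNAs tested, 9 were called. The median log2 change of the 97 was -0.00, with 47 above 0, and that of all genes was -0.01.

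RP6.99M1.2 lies at chrX:45604638-45629677 on the minus strand and overlaps MIR221 on that strand. Its level in control was 26.4, 29.5, 24.7 and 27.3 FPM. With AII it was at 29.7, 29.0, 26.0 and 33.9 FPM, which overlapped control. EGF brought it to 58.7, 46.0, 47.0 and 47.4 FPM. Under AII+EGF it was at 37.2, 47.8, 46.7 and 44.5 FPM. Every library with EGF, alone or with AII, lay above every library without it. The log2 change was 0.88 ± 0.11 (SE) for EGF (1.84-fold, adjusted p = 1.25e-05) and 0.70 ± 0.11 for AII+EGF (1.63-fold, adjusted p = 0.000171). It was 0.12 ± 0.11 for AII (adjusted p = 0.987), and AII+EGF differed from EGF by -0.17 ± 0.10 (adjusted p = 0.700). Within the first library series (library numbers 1 to 8) the means were 27.9 FPM in control and 52.4 with EGF, and within the second 26.0 and 47.2. The series are a split by library number made here, not a batch named in the labels. At 6 h the annotated precursor MIR221 had 5 to 15 raw counts per control library, 5 to 9 per AII library, 14 to 23 per EGF library and 9 to 20 per AII+EGF library. MIR222 had 1 to 8 counts in any library at 6 h, which is too few to read alone. At 24 h MIR222 had 23, 58 and 25 raw counts in the AII+EGF libraries and 0 to 11 in the others. MIR221 had 5 to 22 in the libraries at 24 h. These counts at 24 h were singled out after they were seen, and their differences were not tested. Mature microRNAs were not measured here.

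LINC00152 (chr2:87754300-87936259, plus strand), a cytoplasmic RNA also known for its growth-promoting role in tumour cells, stood at 22.0, 17.7, 26.4 and 23.8 FPM in control. It was at 30.3, 35.6, 27.0 and 29.3 FPM with EGF and at 31.1, 33.1, 33.7 and 30.4 FPM with AII+EGF. Both sets of libraries lay above all controls, the lowest EGF library by little. The log2 change was 0.45 ± 0.12 with EGF (adjusted p = 0.0221) and 0.52 ± 0.12 with AII+EGF (adjusted p = 0.00829), below 1.5-fold in both. Without control replicate 2 the adjusted p for EGF was 0.0833, and without EGF replicate 2 it was 0.0911. Its near-copy MIR4435.1HG (chr2:111763592-112280953, minus strand, antisense to BCL2L11) was at 27.5, 29.3, 36.6 and 36.2 FPM in control, and at 38.8, 47.4, 37.6 and 39.5 FPM with EGF. It rose by 0.37 ± 0.11 with AII+EGF (adjusted p = 0.0360), where levels were 41.8, 44.3, 42.8 and 39.7 FPM, and its change with EGF was 0.33 ± 0.11 (adjusted p = 0.0673). Leaving out control replicate 1 or 2 or AII+EGF replicate 1, 2 or 3 put the adjusted p for AII+EGF between 0.0671 and 0.124. With the counts of both genes summed, the change was 0.38 ± 0.10 with EGF (adjusted p = 0.0169) and 0.43 ± 0.10 with AII+EGF (adjusted p = 0.00610).

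CASC7 was at 131, 164, 177 and 169 FPM in control and at 208, 185, 216 and 210 FPM with EGF. AII+EGF gave 205, 189, 212 and 210 FPM, and AII 167, 171, 174 and 186 FPM, which overlapped control. The libraries with EGF lay above all others but for AII replicate 4, at 186 FPM. The change was 0.35 ± 0.08 for EGF (adjusted p = 0.0103) and 0.35 ± 0.08 for AII+EGF (adjusted p = 0.0109). CASC7 matched no gene of the annotation used here, and RefSeq lists its name as an alias of AGO2, the gene of the Argonaute protein that holds microRNAs. AGO2 has its own entry in the table and rose by 0.26 ± 0.08 with EGF (adjusted p = 0.0499) and by 0.38 ± 0.08 with AII+EGF (adjusted p = 0.00295). Whether the count of one holds reads of the other was not tested.

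**Figure D3:**
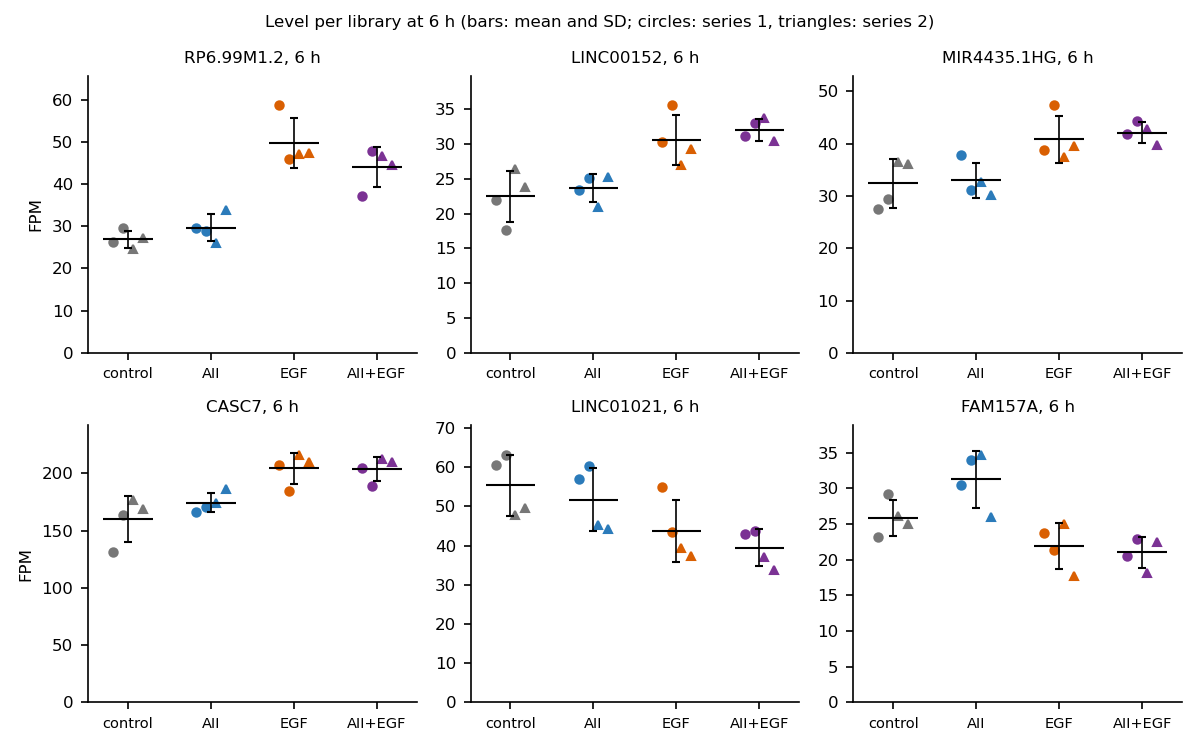
FPM per library at 6 h for 6 lincRNAs that passed on adjusted p in at least 1 comparison, by condition, with mean and SD (n = 4). Circles are the first library series and triangles the second; RP6.99M1.2 lies between 37.2 and 58.7 FPM in every library with EGF and at or below 33.9 FPM in the others.

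With AII+EGF at 6 h, 5 lincRNAs passed on adjusted p, 4 higher and 1 lower, and RP6.99M1.2 alone was called by the full rule. The same rules took 6.10% and 1.95% of all genes. Beside the 4 that rose, described above, LINC01021 (PURPL, a p53 target, at chr5:27217821-27497978, plus strand) fell by 0.49 ± 0.13 on the log2 scale (adjusted p = 0.0235). Its levels were 60.6, 63.2, 47.9 and 49.6 FPM in control, 54.9, 43.3, 39.3 and 37.2 FPM with EGF and 43.1, 43.6, 37.2 and 33.8 FPM with AII+EGF. All AII+EGF libraries lay below all controls, and the EGF libraries overlapped them. The library series stood apart for this gene: control was at 61.9 FPM in the first and 48.8 in the second, and AII+EGF at 43.3 and 35.5. Within both, AII+EGF was lower than control. The change with EGF was -0.35 ± 0.13 (adjusted p = 0.118), and 0.00862 was its adjusted p with library series as a block. For AII+EGF, leaving out control replicate 1 or 2 or AII+EGF replicate 3 or 4 gave an adjusted p between 0.0506 and 0.101. AGTR1 itself was 0.45 higher on the log2 scale with AII+EGF than in control (adjusted p = 0.000498). With AII alone it was 0.34 higher, which did not pass, and with EGF alone 0.0017 higher. The part of AGTR1 in these results was not tested.

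Other lincRNAs near the top of these lists did not pass in edgeR's test, and some of them passed in another. The lowest p values among genes below control with EGF belonged to C11orf95 (ZFTA, log2 change -0.30 ± 0.10, adjusted p = 0.0631, and 0.0421 by DESeq2), EPB41L4A.AS1, the host of SNORA13 (-0.45 ± 0.15, adjusted p = 0.0758), and RP11.206L10.2 (-0.39 ± 0.14, adjusted p = 0.104). EPB41L4A.AS1 was at 33.3, 25.7, 34.1 and 29.8 FPM in control and at 18.3, 18.7, 27.0 and 25.1 FPM with EGF, so the groups overlapped, and its change with AII+EGF was -0.44 ± 0.15 (adjusted p = 0.0923). Within each library series both EGF libraries lay below both controls, with means of 18.5 against 29.5 FPM in the first and 26.0 against 31.9 in the second. With library series as a block its adjusted p was 0.00839 for EGF and 0.0103 for AII+EGF, and DESeq2 gave 0.0459 for EGF. With AII+EGF, CTD.2619J13.14 (ZNF584-DT) had a change of 0.52 ± 0.16 (adjusted p = 0.0630, and 0.0351 by DESeq2; singled out after its values were seen), and LL22NC03.2H8.5 of -0.88 ± 0.29 (adjusted p = 0.0799). The value of LL22NC03.2H8.5 rested on control replicate 1, which was at 63.1 FPM against 16.9 to 27.4 in the other controls, and without it the change was -0.35 (adjusted p = 0.396).

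AII+EGF against AII compares EGF receptor activation on top of AT1R activation. By adjusted p, 4 lincRNAs passed, RP6.99M1.2 and LINC00152 higher and FAM157A and RP11.206L10.2 lower, while 5.93% of all genes did. FAM157A alone was called by the full rule, which took 1.87% of all genes. It was at 30.4, 33.9, 34.7 and 26.0 FPM with AII and at 20.6, 22.9, 18.2 and 22.4 FPM with AII+EGF, groups that did not overlap. The change was -0.59 ± 0.12 (adjusted p = 0.00425), a fold of 1.502 against the limit of 1.5, and RP6.99M1.2 stood on the other side of that limit with 0.58 ± 0.11 (adjusted p = 0.00129). Control, at 23.1 to 29.2 FPM, overlapped AII, and the changes of FAM157A against control were 0.28 ± 0.12 for AII (adjusted p = 0.987), -0.25 ± 0.12 for EGF (adjusted p = 0.263) and -0.31 ± 0.13 for AII+EGF (adjusted p = 0.170). Leaving out 1 library kept its adjusted p between 0.00258 and 0.0282, but the fold fell under 1.5 without control replicate 1, EGF replicate 2, AII replicate 2 or 3 or AII+EGF replicate 1 or 3, to 1.43 at the lowest. RP11.206L10.2, its partner of 97.4% identity on chromosome 1, was at 25.1, 26.1, 26.5 and 18.9 FPM with AII and 16.1, 18.9, 15.8 and 19.2 FPM with AII+EGF, with a change of -0.48 ± 0.14 (adjusted p = 0.0464). That call was lost when any 1 of 11 of the 16 libraries was left out, with adjusted p up to 0.157. Summed, the pair changed by -0.54 ± 0.10 (adjusted p = 0.00213). The change of LINC00152 was 0.44 ± 0.12 (adjusted p = 0.0248), between 0.0600 and 0.0738 without AII replicate 1 or 3 or AII+EGF replicate 2 or 3. Over the 97, the median change in this comparison was -0.13, with 27 above 0, against -0.02 for all genes and -0.15 for the other lincRNAs.

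AII alone called 0 of the 97 at 6 h by edgeR's test, and 0% of all genes. An unadjusted p under 0.05 was found for 11 of the 97 and for 845 of 18618 genes, and DESeq2 also called 0 of the 97. AII+EGF against EGF and the interaction of AII and EGF likewise gave 0 calls (0% of all genes), with 9 and 13 lincRNAs at an unadjusted p under 0.05, against 1352 and 1491 of all genes, and DESeq2 called 0 of the 97 in both. CTC.444N24.11, the lincRNA with the lowest p between AII+EGF and EGF, stood at 94.6, 84.1, 89.6 and 87.7 FPM with EGF and at 73.3, 72.3, 72.3 and 70.2 FPM with AII+EGF. The groups did not overlap, but the change of -0.30 ± 0.07 had an adjusted p of 0.578. It was singled out after its values were seen.

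The abundant scaffolds and XIST gave no call at 6 h. XIST was at 13715, 21549, 18718 and 17875 FPM in control, and 20342, 21294, 18257 and 22084 FPM in the AII libraries. The EGF libraries were at 21635, 19836, 19323 and 19188 FPM and the AII+EGF libraries at 17860, 17827, 17088 and 15579 FPM. Its control libraries spanned nearly the whole range. Its log2 change was 0.15 ± 0.09 with EGF (adjusted p = 0.366) and -0.07 ± 0.09 with AII+EGF (adjusted p = 0.744), the latter 0.03 without control replicate 2. The interaction was -0.42 ± 0.13 (unadjusted p = 0.00404, adjusted p = 0.592), and without the filter on low counts it had an adjusted p of 0.000193. MALAT1 was at 2843, 3219, 2842 and 2894 FPM in control and 3258, 3208, 2777 and 2601 with EGF, a change of 0.01 ± 0.09 (adjusted p = 0.986). NEAT1 changed by 0.13 ± 0.07 (adjusted p = 0.335), LINC00657 by 0.11 ± 0.07 (adjusted p = 0.396) and FIRRE by -0.10 ± 0.07 (adjusted p = 0.448) with EGF. RMRP, whose control libraries ran from 565 to 1612 FPM, gave 0.22 ± 0.28 (adjusted p = 0.719).

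Proteins that act with these RNAs were taken as lists. Of 14 paraspeckle proteins, the partners of NEAT1, 2 rose with EGF at 6 h (TARDBP by 0.24, adjusted p = 0.0233, and SFPQ by 0.22, adjusted p = 0.0204) and 0 with AII+EGF. Of 10 subunits of RNase P and MRP 0 passed. Of 7 telomerase genes, which include the RNA gene TERC itself, NOP10 rose with EGF (0.70, adjusted p = 0.00638) and with AII+EGF (0.58, adjusted p = 0.0257). Of 10 SR splicing proteins, the partners of MALAT1, SRSF1 rose with EGF (0.24, adjusted p = 0.0468), and SRSF5 fell by 0.49 with AII+EGF (adjusted p = 0.00270). Of 3 Pumilio and SAM68 genes 0 passed. Of 23 tested snoRNA host genes, HSPA8, a chaperone gene with snoRNAs in its introns, rose in both (0.46 and 0.51), and GAS5 and EIF4A2 fell with AII+EGF by 0.29 and 0.26 on the log2 scale. Of 14 RNA decay factors SMG5 rose in both (0.26 and 0.40), while 0 of the 7 microRNA hosts of the list (MIR17HG, PVT1, DLEU2 and others, with LINC00478 as the one among the 97) and 0 of 2 imprinted lincRNAs passed. These genes were named after their values were seen, and the shares are to be read against the 5.97% and 6.10% of all genes.

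The nearest protein-coding gene was tested for 54 of the lincRNAs, 48 distinct genes. At 6 h, 0 were higher and 1 was lower with EGF by adjusted p (ZFP14, next to LINC00665, -0.99), and 0 were higher and 3 lower with AII+EGF (ZFP14 -1.20, BHLHB9 -0.41 and ANKRD36C, next to LINC00342, -0.35). Of all genes tested at 6 h, 5.97% passed with EGF and 6.10% with AII+EGF. At 24 h 0 of 51 passed in either comparison, beside 0.0316% and 0.0271% of all genes.

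**Figure D4:**
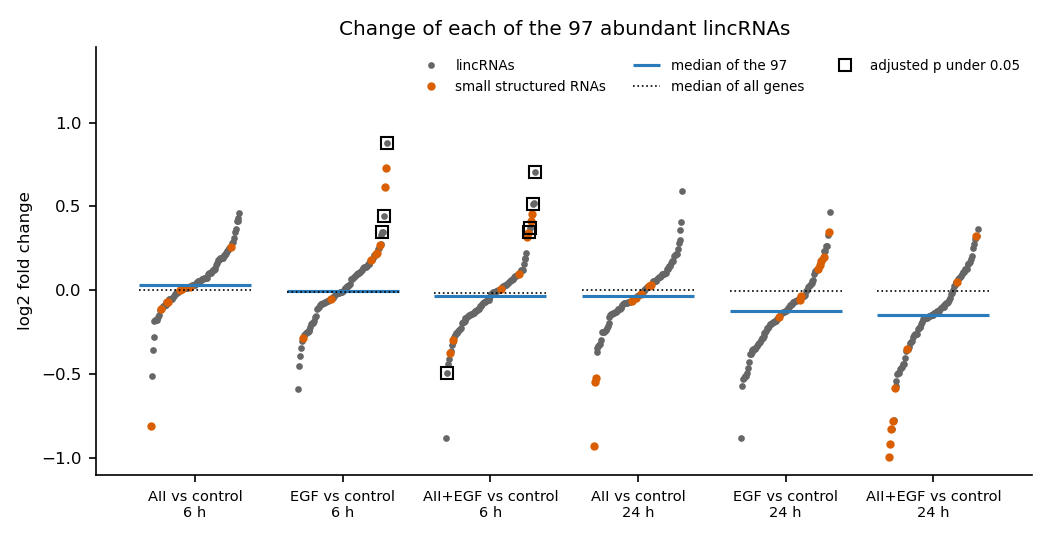
Log2 fold change of each of the 97 lincRNAs against control for AII, EGF and AII+EGF at 6 h and 24 h, sorted within each comparison. Blue lines are the median of the 97 and dotted lines that of all genes; squares mark adjusted p under 0.05, which are 0, 3 and 5 at 6 h and 0 at 24 h.

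At 24 h no lincRNA was called against control by edgeR's test without a term for library series. The full rule called 7 of 22174 genes with EGF (0.0316%), 6 with AII+EGF (0.0271%) and 0 (0%) with AII, so that few genes of any kind passed. It also called 9 genes (0.0406%) in AII+EGF against AII and 0 (0%) in AII+EGF against EGF and in the interaction, again with 0 of the 97. The numbers of the 97 with an unadjusted p under 0.05 were 12 for EGF, 12 for AII+EGF, 3 for AII, 5 for AII+EGF against AII, 3 for AII+EGF against EGF and 1 for the interaction, beside 1881, 1198, 552, 949, 747 and 525 of all genes. DESeq2 called 1 of the 97 in each of EGF, AII+EGF and AII+EGF against AII, and 0 in the other comparisons. With library series as a block, edgeR also called 1 in each of EGF, AII+EGF and AII+EGF against AII. The shares of all genes called by DESeq2 and with the block are not given here, so these calls stand without a background. The biological coefficient of variation was 29.1% at 24 h against 10.6% at 6 h. The median log2 change of the 97 was -0.12 with EGF, with 26 above 0, and -0.14 with AII+EGF, with 28 above 0, against -0.00 and -0.01 for all genes and -0.17 and -0.11 for the other lincRNAs. Leaving out 1 library kept the medians between -0.15 and -0.08 for EGF and between -0.17 and -0.11 for AII+EGF.

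AC159540.1 (chr2:98081083-98099107, minus strand) stood out at 24 h. It was at 96.8, 125, 90.6 and 100 FPM in control and at 159, 141, 88.3 and 89.7 FPM with AII. EGF libraries were at 44.0, 65.2, 59.3 and 55.4 FPM, and AII+EGF libraries at 79.9, 49.1 and 45.2 FPM. All 7 libraries with EGF lay below all 8 without it. The log2 change was -0.88 ± 0.20 for EGF (adjusted p = 0.141), -0.82 ± 0.22 for AII+EGF (adjusted p = 0.365) and -1.04 ± 0.22 for AII+EGF against AII (adjusted p = 0.0935). DESeq2 gave an adjusted p of 0.00631 for EGF and 0.00136 for AII+EGF against AII, and edgeR with library series as a block 0.0185 and 0.0128. Without AII+EGF replicate 1 the comparison with AII was called (-1.34, adjusted p = 0.0210), likewise without AII replicate 3 (-1.16, adjusted p = 0.0498). In the first series the means were 111 FPM in control, 150 with AII and 54.6 with EGF, and in the second 95.4, 89.0 and 57.3. At 6 h the EGF libraries of this gene were at 80.0 to 109 FPM against 66.1 to 121 in control, a change of 0.07 ± 0.15 (adjusted p = 0.850).

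LINC00342 (chr2:96472800-96500751, minus strand), a near-copy of AC159540.1, behaved alike at 24 h, though reads of the pair may be shared. Its levels were 38.4, 33.7, 33.0 and 45.2 FPM in control, 39.9, 31.1, 35.0 and 30.1 FPM with AII, 20.3, 24.7, 26.9 and 29.0 FPM with EGF and 16.4, 25.7 and 24.1 FPM with AII+EGF. Again every library with EGF lay below every library without it. The change was -0.57 ± 0.16 for EGF (adjusted p = 0.278) and -0.77 ± 0.17 for AII+EGF (adjusted p = 0.184, 0.0116 by DESeq2 and 0.0419 with the block). Summed, the pair changed by -0.79 with EGF (adjusted p = 0.0785), by -0.81 with AII+EGF (adjusted p = 0.124) and by -0.94 in AII+EGF against AII (adjusted p = 0.0466). Summing the copies changed the call in the last of these comparisons and in neither of the others.

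Of the other lincRNAs at 24 h, RP11.706O15.7 had a change of -0.51 ± 0.13 with EGF (adjusted p = 0.235), with 28.5, 31.3, 25.9 and 31.1 FPM in control and 22.3, 21.4, 20.1 and 18.4 FPM with EGF, which did not overlap. Its AII+EGF libraries, at 28.9, 23.2 and 28.9 FPM, did overlap control. FTX is a lincRNA of the X inactivation centre whose locus holds MIR421 and MIR374B. It was at 64.1 to 76.6 FPM in control and 47.6 to 61.0 FPM with EGF, a change of -0.36 ± 0.12 (adjusted p = 0.373). With AII it was at 65.7 to 85.9 FPM and with AII+EGF at 55.9 to 57.0 FPM. As for AC159540.1 and LINC00342, every FTX library with EGF lay below every library without it. RP11.31F15.2 had -0.46 ± 0.17 with AII+EGF (adjusted p = 0.844). The smallest p values above control belonged to LINC00623 (0.26 ± 0.14, adjusted p = 0.641), CRNDE, a developmental lincRNA often raised in tumours (0.47 ± 0.25, adjusted p = 0.645), and RP11.53O19.3 (0.27 ± 0.15, adjusted p = 0.689) with EGF. With AII+EGF they belonged to RP6.99M1.2, RP11.121C2.2 (0.33 ± 0.22, adjusted p = 0.997) and RP11.834C11.4 (0.25 ± 0.18, adjusted p = 0.997). None of these passed.

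RP6.99M1.2 at 24 h was at 32.5, 29.1, 21.5 and 23.2 FPM in control, 26.9, 46.7, 32.7 and 26.7 with EGF and 38.7, 26.3 and 32.6 with AII+EGF. The groups now overlapped, and the change was 0.33 ± 0.19 for EGF (adjusted p = 0.695) and 0.30 ± 0.21 for AII+EGF (adjusted p = 0.997). In the joint fit the EGF effect at 24 h was lower than that at 6 h by -0.55 ± 0.23, which did not pass (adjusted p = 0.399). CASC7, whose libraries at 24 h all lay between 56.4 and 74.7 FPM, changed by -0.04 ± 0.11 with EGF (adjusted p = 0.963), and its difference between the times was -0.39 ± 0.14 (adjusted p = 0.276). For AC159540.1 that difference was -0.96 ± 0.26 (adjusted p = 0.153), and 0.0312 with library series as a block. The joint fit called 35 of 21932 genes for EGF (0.160%) and 24 for AII+EGF (0.109%), with 0 of the 97 in each. An unadjusted p under 0.05 was found for 8 and 9 of the 97, beside 2220 and 1642 of all genes. The time points also differ in library content as given above.

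**Figure D5:**
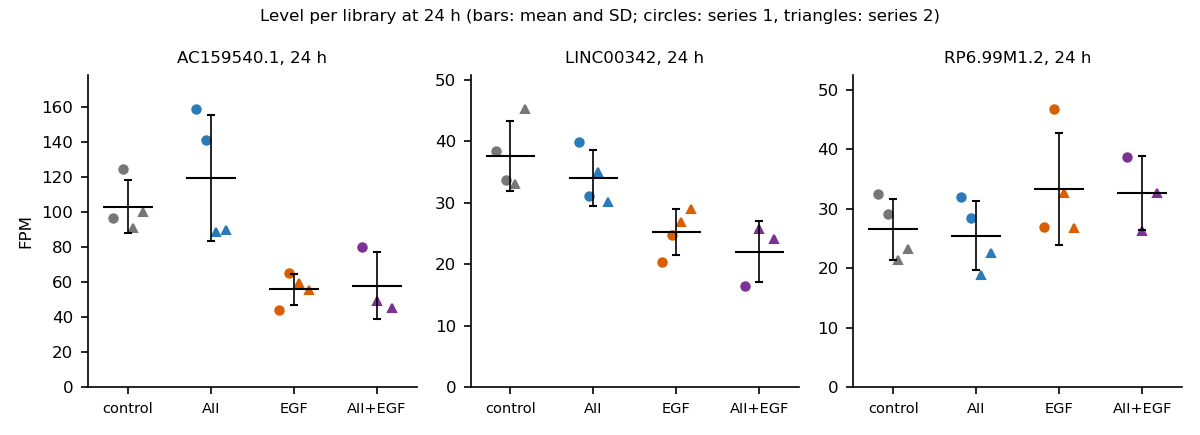
FPM per library at 24 h for AC159540.1, LINC00342 and RP6.99M1.2 by condition, with mean and SD (n = 4, and 3 for AII+EGF). Circles are the first library series and triangles the second. For AC159540.1 and LINC00342 all libraries with EGF lie below those without it, and for RP6.99M1.2 the groups overlap.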

How the data were processed

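RNA-seq counts of 16 libraries at 6 h and 15 at 24 h were analysed, and 1 of the 32 labelled samples had no column; 0 columns matched no sample. Per the labels, total RNA was freed of ribosomal RNA with RiboMinus and sequenced in pairs, and the submitters' processing notes name Trim Galore, cutadapt 1.8.1, TopHat2 2.0.14, featureCounts 1.4.6 and hg19 (the design text names HISAT2). The authors deposited raw counts per gene. At 24 h, 8 columns carry the word filtered in their names and 7 do not, and what was filtered is not given in the sources used here. The 8 are all columns of the first library series and AII+EGF replicate 3 of the second. Filtering and library series can therefore hardly be told apart at 24 h. The main fit held no term for either. Library series was set here from the library numbers, with 1 to 8 as the first, and the labels name no batch. CPM is the count divided by the column total. The mature microRNAs were outside the measurement.

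Counts were tested with edgeR 4.0.16 in R 4.3.3 (quasi-likelihood F test, TMM, filterByExpr), with 1 fit of the 4 conditions per time and a joint fit for differences between times; all genes were tested and adjusted together by Benjamini-Hochberg. Calls needed an adjusted p under 0.05, more than 1.5-fold change and over 5 FPM (CPM after TMM scaling) on average. SE is the log2 change divided by the root of F. The fits were tested on simulated data first. Samples were grouped by their labels, which do not say whether libraries came from separate cultures, so p-values measure the spread between these libraries, which may be technical. Alternatives were DESeq2 1.42.0, its size factors, no filter, small nuclear RNA genes left out, library series as a block, an adjusted p of 0.01 or alone, other CPM thresholds and each library left out. Summed copies and means within series were chosen after seeing the data. The lincRNAs and gene lists were chosen with earlier results of these data known, and the role groups after seeing the members. Genes named were the 10 most abundant, those called, the 3 with the smallest p in each direction, those beside the threshold and lincRNAs of known role; others are said to have been singled out. Positions are from an annotation lifted to GRCh37, matched by ID for 76 genes and by name for 1.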

Additional observations from a re-analysis of the deposited data

Results flagged for a closer look

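Within a condition, a library was marked when its gap to the nearest other, divided by the range of the 4, exceeded Dixon's critical value. Of 294 combinations over 42 named lincRNAs, 11 were marked, and chance marks about 1 in 20, here 14.7. The ratio was 0.890 for RP6.99M1.2 with EGF at 6 h, where replicate 1 was the highest. It was 0.862 for MALAT1 in control at 6 h (replicate 2 highest) and 0.841 with AII (replicate 3 lowest). With AII+EGF at 6 h it was 0.877 for CTD.2314B22.3 and 0.891 for FTX, both with replicate 1 highest, and 0.923 for RP11.121C2.2 and 0.846 for RP13.216E22.4, both with replicate 4 lowest. With EGF at 6 h it was 0.960 for LINC00623 (replicate 4 lowest), 0.859 for RP11.834C11.4 (replicate 4 highest) and 0.868 for RP11.53O19.3 (replicate 1 highest). At 24 h it was 0.889 for CRNDE in control, with replicate 4 lowest.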

How the results depend on the processing

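No paired analysis was possible because replicate numbers are absent from the labels, and the numbers used here follow accession order; library series could be fitted as a block instead. Of the 70 gene results, 36 kept their direction and side of the threshold under every alternative, and 19 fits of 9 gene results changed sign. The adjusted p alone passed 3 lincRNAs for EGF, 5 for AII+EGF and 4 for AII+EGF against AII at 6 h. DESeq2 called 1 at 24 h for EGF, for AII+EGF and for AII+EGF against AII. Library series as a block called 1 in the same comparisons, 3 for AII+EGF against AII at 6 h and 1 for the EGF effect between times. Leaving out small nuclear RNA genes gave 2 for AII+EGF against AII at 6 h. With no filter, the calls at 6 h were 3 for EGF, 1 for AII, 2 for AII+EGF, 1 for AII+EGF against EGF, 2 against AII and 3 for the interaction; at 24 h they were 1 for EGF, 1 for AII, 6 for AII+EGF, 4 against EGF, 3 against AII and 1 for the interaction, and between times 3 for EGF and 6 for AII+EGF. The shares of all genes called with DESeq2, the block, no filter or small nuclear RNA genes left out are not given here. A change in these counts therefore cannot be told apart from a looser or stricter test of all genes. A threshold of 10 CPM took 187 lincRNAs and 40 CPM took 43. Leaving out 1 library gave 1 to 3 calls for AII+EGF at 6 h, 0 to 3 for AII+EGF against AII at 6 h (0 without EGF replicate 2, AII replicate 2 or 3, or AII+EGF replicate 3; 3 without AII replicate 4) and 0 to 1 at 24 h. None of the values that changed sign was called. Over the libraries left out, CASC7 with EGF at 24 h ran from -0.0866 to 0.0275, XIST with AII+EGF at 6 h from -0.175 to 0.0303, MALAT1 with EGF from -0.0371 to 0.0700 (-0.000279 with the block), NEAT1 with AII+EGF from -0.0559 to 0.0585 (0.0139 without the filter), RMRP with AII+EGF from -0.102 to 0.379, and AC159540.1 at 6 h from -0.0491 to 0.240 with EGF and from -0.177 to 0.107 with AII+EGF. LINC00657 with AII+EGF was at 6.63e-05 without the filter, and LINC00342 with EGF at 6 h at 0.0176 with copies summed. Except where a library was left out, the cause was not tested.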
